A study of Mus musculus with 19 samples.

Results

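Chemokine receptors are G protein-coupled receptors that steer leukocytes along gradients of chemokines, small secreted proteins presented on stromal and endothelial surfaces. The set described here is 10 receptor genes, chosen by name: Cxcr3, Cxcr4, Cxcr5, Cxcr6, Ccr2, Ccr6, Ccr7, Ccr8, Ccr9 and Xcr1. All 10 are among the 18607 genes of the deposited table. Innate lymphoid cells (ILC) are tissue-resident lymphocytes without rearranged antigen receptors, and their precursors arise in the bone marrow. Stromal CXCL12 retains blood cell progenitors there through CXCR4, whereas other receptors, such as CCR7, CCR9 and CXCR6, are used by lymphocytes to enter or occupy particular tissues.

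RNA-seq covered 3 progenitor stages in 19 libraries, each sorted from C57BL/6 mice. The tissue label of every library is bone marrow, although the protocol text speaks of cell suspensions of bone marrow and also thymus. All-lymphoid progenitors (ALP, 7 libraries) were lineage-low cells with Kit, IL-7Rα, high Flt3 and low Ly-6D on their surface. Early innate lymphoid progenitors (EILP, 7 libraries) had Kit and high green fluorescence, with low Thy-1.2 and CD122 and intermediate to low IL-7Rα. ILC progenitors (ILCp, 5 libraries) were gated on high IL-7Rα, integrin α4β7, Thy-1.2, Kit and green fluorescence at low CD122 and low Ly-6D. Every ALP and EILP library and ILCp 1, 2 and 3 came from mice with 1 reporter allele of Tcf7 (Tcf7EGFP/+), whereas ILCp 4 and 5 came from Plzf-cre-GFP/+ mice, in which the fluorescence follows the gene of PLZF. The green fluorescence of the ILCp gate therefore did not report the same gene in all 5 libraries. No receptor of the set was part of a sorting gate.

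The values are the authors' log2 CPM, that is, counts scaled to a common library total (CPM) on a log2 scale, and batch differences beside the stages had already been removed from them, since no gene keeps a batch coefficient above 1.84e-08 beside the stages. The depth of the libraries is unknown. Libraries without a read for a gene share 1 value within a batch, here called the zero level, which averages −4.96 log2 CPM over the batches but differs between them, so a level near or below it has no meaning of its own. Differences between stages were tested with limma over all 18607 genes with batch in the model, and a gene is called where the Benjamini-Hochberg adjusted p was below 0.05. Whether the libraries of a stage derive from different mice is not stated, so the p-values speak only for the variation among these libraries, part of which may be technical. Differences given within a batch rest on 1 to 3 libraries per stage. Batch 1 holds 1 library of each stage, and batch 2 holds 2 ALP, 1 EILP and 1 ILCp. Batch 4 holds 1 ALP, 1 EILP and 3 ILCp, and batch 5 holds 3 ALP and 2 EILP. Batch 3 holds EILP libraries only. Of 9 genes of the sorting gates, 6 rose and 1 fell from ALP to EILP. EILP libraries also held transcripts of other lineages, and 12 monocyte and granulocyte genes summed to between 1699 CPM in EILP 5 and 41906 CPM in EILP 2. Likewise 8 eosinophil and basophil genes summed to 12.8 to 101 CPM in ALP, 516 (EILP 5) to 13692 CPM (EILP 6) in EILP and 105 to 567 CPM in ILCp. For 8 stroma and bone genes the sums were 126 to 198 CPM in ALP, 174 (EILP 1) to 1593 CPM (EILP 5) in EILP and 149 to 173 CPM in ILCp. Of these 2 lists, Cpa3, Col1a1 and Col1a2 rose from ALP to EILP, and Prg2, Epx, Ear2, Col1a1 and Col1a2 fell from EILP to ILCp. The part of these transcripts in the receptor results was not tested. With single libraries left out, at least 1 receptor call was lost without EILP 1, 2, 5, 6 or 7 or any ILCp library. For ILCp 3, 4 and 5 this was the Ccr7 call alone. In bulk RNA, fewer cells with a transcript and less transcript per cell cannot be told apart.

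Cxcr5 rose at the first step, from ALP to EILP. Cxcr6, Ccr8 and Xcr1 were near or at the zero level in most ALP and EILP libraries and rose at the second step, from EILP to ILCp. The sizes of the Cxcr6, Ccr8 and Xcr1 changes depend on where that level lies and are not exact. Ccr2 rose at both steps, Ccr9 fell at the first, Ccr7 rose at the second, and Cxcr4 was lower in ILCp than in ALP. Cxcr3 and Ccr6 did not pass in any comparison.

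**Figure D1:**
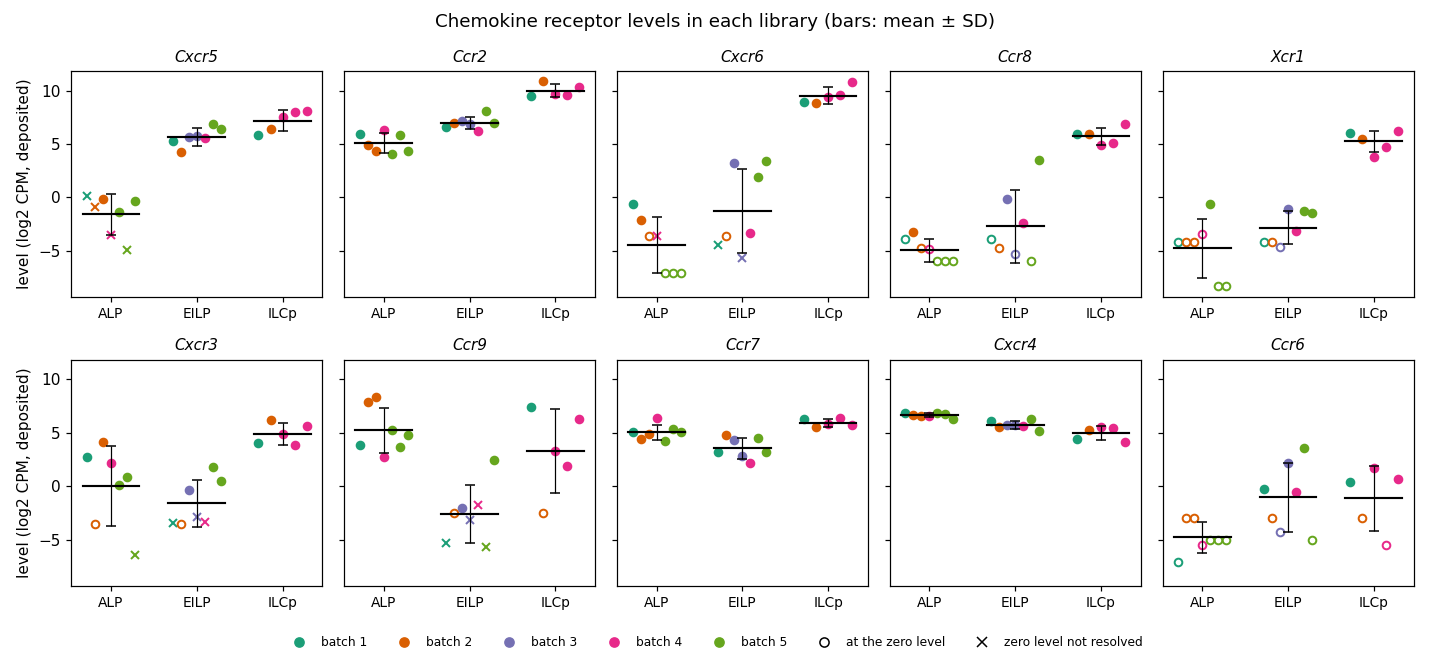
Deposited log2 CPM (y axis) of the 10 receptors in each of the 19 libraries by stage (x axis), with colours for batches, open circles for libraries at the zero level, crosses where the zero level could not be resolved, and bars for the mean ± SD. Cxcr5 separates ALP from the later stages, whereas all 5 ILCp libraries lie above all EILP libraries for Cxcr6, Ccr8, Xcr1, Cxcr3, Ccr2 and Ccr7. Of these, Cxcr3 was not called, and the share of all genes that separate in this way was not determined.

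In the comparison of EILP with ALP, the earlier of the 2 steps that the stages define, 2 of the 10 receptors rose and 1 fell. Over all genes, 5.05% were called, 2.25% higher and 2.79% lower in EILP. The split of 419 higher to 520 lower genes turned to 804 higher and 395 lower when each library was centred on its median, which moved the median of all genes by 0.22 on the log2 scale, but the calls of the 10 receptors stayed. The median log2 fold change of 9 of them, without Ccr6, which was at the zero level in all ALP libraries, was 1.88, against 0 over all genes. Without EILP 6, 1 of the 10 passed. The 10 genes were named with earlier results of these data known, so these counts describe the set and do not test it.

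Cxcr5 encodes the receptor of CXCL13, which brings B cells and follicular helper T cells to lymphoid follicles and is also carried by lymphoid tissue inducer cells (chromosome 9, 44511787 to 44561877, minus strand, GRCm38). Its level in ALP ranged from −4.93 to 0.14 log2 CPM with a median of −0.88. In EILP it ranged from 4.27 to 6.88 with a median of 5.65. In ILCp it was 5.88, 6.45, 7.54, 7.96 and 8.09 log2 CPM in libraries 1 to 5. Every EILP and ILCp library lay above every ALP library, while EILP and ILCp overlapped. Cxcr5 rose by 7.26 ± 0.86 (SE) on the log2 scale from ALP to EILP (limma adjusted p = 6.68e-05) and was 8.76 ± 0.99 above ALP in ILCp (limma adjusted p = 3.33e-05). The difference was 5.15 in batch 1, 4.76 in batch 2, 9.13 in batch 4 and 8.86 in batch 5 for EILP against ALP. From EILP to ILCp the estimate was 1.49, with a 95% confidence interval of −0.68 to 3.67 (limma adjusted p = 0.503). In at least 3 of 7 ALP libraries Cxcr5 lay above the zero level, and in the other 4 this could not be resolved, so the size of the change depends in part on that level. The annotated Cxcr5 overlaps the end of Bcl9l, a gene on the opposite strand that was called in none of the 3 comparisons.

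Ccr2 encodes the receptor of CCL2 and CCL7, best known for letting monocytes leave the bone marrow (chromosome 9, 124101950 to 124113557, plus strand). It was above the zero level in all 19 libraries. ALP libraries ranged from 4.02 to 6.33 log2 CPM (median 4.92) and EILP libraries from 6.25 to 8.11 (median 7.01). ILCp libraries 1 to 5 were at 9.53, 10.90, 9.64, 9.55 and 10.29. ALP and EILP overlapped at their edges, and ILCp lay above both. Ccr2 rose by 1.88 ± 0.45 from ALP to EILP (limma adjusted p = 0.0210), by 2.99 ± 0.53 from EILP to ILCp (limma adjusted p = 0.00661) and by 4.87 ± 0.51 over both steps (limma adjusted p = 1.61e-05). The first step was uneven across batches, with differences of 0.64, 2.35, −0.08 and 2.82 in batches 1, 2, 4 and 5. Its call was lost without EILP 2 (1.87, limma adjusted p = 0.0609), EILP 6 (1.53, adjusted p = 0.0880) or EILP 7 (1.87, adjusted p = 0.0614). The second step was 2.94, 3.89 and 3.58 in batches 1, 2 and 4, and its call was lost without EILP 5 (2.55, limma adjusted p = 0.0683). Monocytes are rich in Ccr2 RNA. The 12 monocyte and granulocyte genes summed to 574 to 5375 CPM in ALP, 1699 to 41906 CPM in EILP and 161 to 1859 CPM in ILCp, with overlap between the stages. At the first step their median sum was 1913 CPM in ALP and 6428 CPM in EILP, with none of the 12 called in limma (4 at an unadjusted p below 0.05). At the second step the median sum was 405 CPM in ILCp, and 2 of the 12, Mpo and Prtn3, fell while none rose. The part of the 12 genes in the Ccr2 differences was not tested.

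Ccr9 encodes the receptor of CCL25, which draws progenitors to the thymus and lymphocytes to the small intestine (chromosome 9, 123678439 to 123784330, plus strand). ALP libraries ranged from 2.74 to 8.35 log2 CPM with a median of 4.83. EILP libraries ranged from −5.70 to 2.44 with a median of −2.55, and EILP 7 was the only one above 0. ILCp libraries 1 to 5 were at 7.38, −2.55, 3.26, 1.87 and 6.33, with ILCp 2 at the zero level. In EILP 1 library was at the zero level, 2 were above it and 4 could not be resolved. All ALP libraries lay above all EILP libraries, while ILCp spread across both. Ccr9 changed by −7.81 ± 1.77 from ALP to EILP (limma adjusted p = 0.0152), with differences of −9.23, −10.65, −4.55 and −6.20 in batches 1, 2, 4 and 5. The call was lost without EILP 1 (−6.88, limma adjusted p = 0.0566) or EILP 6 (−6.86, adjusted p = 0.0662). From EILP to ILCp the estimate was 5.85 ± 2.10 and did not pass (limma adjusted p = 0.156), but without ILCp 2 it was 8.79 and passed (limma adjusted p = 0.0274). Against ALP, ILCp was at −1.96 with a 95% confidence interval of −6.27 to 2.34, and the sign turned without ILCp 2 (1.32, limma adjusted p = 0.816). Lztfl1, on the opposite strand within Ccr9 as annotated in GENCODE M21, was called in none of the 3 comparisons. The RefSeq promoter of Ccr9 lies at 123766961 to 123767260, and from that start Lztfl1 lies outside Ccr9. Plasmacytoid dendritic cells also express Ccr9. Of 7 other genes of these cells, 4 fell from ALP to EILP and none rose, and their summed level was 1169 to 2200.2 CPM in ALP, 632 to 994 CPM in EILP and 177 to 439 CPM in ILCp. None of the 7 was at the zero level in a whole stage. Siglech, 1 of the 4 that fell, averaged 5.67 ± 1.27 log2 CPM (SD, n = 7) in ALP and −2.78 ± 2.95 (n = 7) in EILP. It was above the zero level in all 7 ALP libraries and at it in 5 of 7 EILP libraries. Irf8, which was not called at this step, averaged 9.84 in ALP and 9.15 in EILP and weighs heavily in the sums. The part of the 7 genes in the Ccr9 difference was not tested.

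Cxcr4 and Ccr7 had negative estimates at the first step without passing. Cxcr4 encodes the CXCL12 receptor (chromosome 1, 128588199 to 128592293, minus strand). Its ALP libraries lay within 6.33 to 6.86 log2 CPM (median 6.62) and its EILP libraries within 5.17 to 6.32 (median 5.74), so the stages met without overlapping. The log2 fold change was −0.89 ± 0.27 (limma adjusted p = 0.0832), with −0.68, −1.08, −0.89 and −0.91 in batches 1, 2, 4 and 5. It passed without ILCp 5 (−0.90, limma adjusted p = 0.0459) and with only the 2 stages in the model (−0.91, adjusted p = 0.0289). Ccr7 encodes the receptor of CCL19 and CCL21, which guides cells into lymph nodes and, with CCR9, into the thymus (chromosome 11, 99144196 to 99155077, minus strand). It ranged from 4.18 to 6.38 log2 CPM in ALP (median 5.03) and from 2.14 to 4.75 in EILP (median 3.19), with an overlap. The log2 fold change was −1.49 ± 0.49 (limma adjusted p = 0.102), and it passed without EILP 2 (−1.95, limma adjusted p = 0.0368).

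The second step is addressed by ILCp against EILP, and here 5 of the 10 receptors rose and none fell: Cxcr6, Ccr8, Xcr1, Ccr2 and Ccr7. Over all genes, 3.21% were called, 1.76% higher and 1.46% lower in ILCp. Centring each library on its median turned 327 higher and 271 lower genes to 279 higher and 390 lower, with a median over all genes of −0.17, and again left the receptor calls in place. The median log2 fold change of the 10 was 4.42, against −0.08 over all genes. These calls leaned on EILP 5, the only EILP library in batch 4, which holds 3 of the 5 ILCp libraries. Without EILP 5, 0 of the 10 passed in limma (8 at an unadjusted p below 0.05), and over all genes 224 passed in place of 598. Without ILCp 1, 3 of the 10 and 384 genes passed, and the genes that passed numbered 355 without EILP 2 and 316 without ILCp 2. Without the 2 Plzf-cre-GFP libraries, Ccr2 alone of the 10 passed.

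The 300 bases around the annotated start are shown for the receptors that rose together at this step and have a promoter entry, namely Cxcr6, Xcr1, Ccr8 and Ccr2, to let their start regions be compared. The sequences are RefSeq's (GRCm38.p6), with 250 bases before and 50 after the start, written 5′ to 3′ on the gene's strand. Capitals mark matches on either strand to the searched letters, which were CTTTGAA (TCF/LEF), the letters CTTTGAT as its variant, AGATAA for factors of the GATA family, TGTGGT (RUNX), CGGAAG (ETS), CAGCTG (an E box) and CACCTG (another E box), of which no match overlaps another in these 4.
Cxcr6: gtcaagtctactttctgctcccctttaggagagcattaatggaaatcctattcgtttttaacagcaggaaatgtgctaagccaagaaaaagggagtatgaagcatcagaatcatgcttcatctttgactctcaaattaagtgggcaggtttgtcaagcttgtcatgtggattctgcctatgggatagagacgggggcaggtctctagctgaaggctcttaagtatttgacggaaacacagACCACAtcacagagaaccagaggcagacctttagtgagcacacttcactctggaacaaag
Xcr1: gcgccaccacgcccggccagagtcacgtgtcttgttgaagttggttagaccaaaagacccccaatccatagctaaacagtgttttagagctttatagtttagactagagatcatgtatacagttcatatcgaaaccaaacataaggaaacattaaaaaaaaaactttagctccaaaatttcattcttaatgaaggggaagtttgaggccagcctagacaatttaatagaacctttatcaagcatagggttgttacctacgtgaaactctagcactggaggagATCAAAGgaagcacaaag
Ccr8: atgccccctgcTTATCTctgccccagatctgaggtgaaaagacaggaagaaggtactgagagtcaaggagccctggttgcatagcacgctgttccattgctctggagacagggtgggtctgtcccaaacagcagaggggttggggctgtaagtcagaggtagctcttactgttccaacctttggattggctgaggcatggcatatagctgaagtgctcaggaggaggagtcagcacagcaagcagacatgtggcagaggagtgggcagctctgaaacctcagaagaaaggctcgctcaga
Ccr2: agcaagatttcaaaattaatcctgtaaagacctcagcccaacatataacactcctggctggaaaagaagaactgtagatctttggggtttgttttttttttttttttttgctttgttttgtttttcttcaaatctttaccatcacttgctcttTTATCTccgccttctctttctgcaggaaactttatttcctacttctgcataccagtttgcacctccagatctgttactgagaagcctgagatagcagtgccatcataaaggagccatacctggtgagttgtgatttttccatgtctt
They lie at chr9:123806227-123806526 (plus strand), chr9:123861980-123862279 (minus strand), chr9:120091883-120092182 (plus strand) and chr9:124101933-124102232 (plus strand), in the same order. Each held 1 match. It was the RUNX motif for Cxcr6, the TCF/LEF variant for Xcr1 and the GATA motif for both Ccr8 and Ccr2. Among 32851 promoters of the same length, 16.8% hold the RUNX letters, 3.73% hold the TCF/LEF variant and 11.2% hold the GATA letters. No searched motif was shared by all 4, and such a match is a run of letters, not a measured binding site.

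Cxcr6 encodes the receptor of CXCL16, best known for retaining NKT cells in the liver (chromosome 9, 123806475 to 123811760, plus strand). ALP libraries ranged from −7.04 to −0.60 log2 CPM (median −3.64), with at least 4 of 7 at the zero level. EILP libraries ranged from −5.71 to 3.43 (median −3.36), and EILP 3, 6 and 7, at 3.25, 1.91 and 3.43, stood above the others. ILCp libraries 1 to 5 were at 8.94, 8.81, 9.39, 9.58 and 10.84. All ILCp libraries lay above all others, and ALP and EILP overlapped. The log2 fold change from EILP to ILCp was 10.74 ± 2.17 (limma adjusted p = 0.0141), with 13.42, 12.45 and 13.30 in batches 1, 2 and 4. EILP 3, 6 and 7 are in batches 3 and 5, without ILCp libraries, and so enter the fit but not these differences. Without EILP 5 the log2 fold change was 9.50 and did not pass (limma adjusted p = 0.101). Against ALP it was 13.95 ± 2.09 (limma adjusted p = 0.000493), and this call held without each library in turn. Of 10 T cell genes, none was called from EILP to ILCp in limma (1 at an unadjusted p below 0.05), with sums of 43.5 to 72.5 CPM in EILP and 50.8 to 163 CPM in ILCp. Compared with ALP, where the sums were 22.8 to 86.6 CPM, Cd3d and Cd3g were called higher in ILCp and none was called lower. Cd3d was at the zero level in all 7 ALP libraries and above it in all 5 ILCp libraries. The part of T cell transcripts in the Cxcr6 differences was not tested. The EILP to ALP difference of 3.21 did not pass (limma adjusted p = 0.399) and was uneven, from −3.88 in batch 1 to 9.71 in batch 5.

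Cxcr6 lies within Fyco1, a gene of vesicle transport on the opposite strand (chromosome 9, 123789500 to 123851899), and the library kit does not mark strand, so reads of the pair are not told apart by strand. The mean level of Fyco1 (± SD, in log2 CPM) was 5.20 ± 0.88 for 7 ALP, 3.22 ± 1.09 for 7 EILP and 5.32 ± 0.69 for 5 ILCp libraries. It was called in none of the 3 comparisons (limma adjusted p = 0.0683, 0.122 and 0.956 for EILP versus ALP, ILCp versus EILP and ILCp versus ALP). Between ILCp and ALP, where Cxcr6 differed by 13.95, Fyco1 differed by 0.12.

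Ccr8 encodes the receptor of CCL1 and, in mouse, CCL8, known from regulatory T cells, TH2 cells and ILC2 (chromosome 9, 120092114 to 120094906, plus strand). In ALP, 6 of 7 libraries were at the zero level, ALP 2 being the exception at −3.26 log2 CPM. In EILP, 4 of 7 were at the zero level, and EILP 3, 5 and 7 were at −0.11, −2.44 and 3.52. ILCp libraries 1 to 5 were at 5.94, 5.89, 4.88, 5.05 and 6.86, above all others. The log2 fold change from EILP was 8.44 ± 1.71 (limma adjusted p = 0.0144), with 9.88, 10.65 and 8.04 in batches 1, 2 and 4. The call was lost without EILP 5 (8.60, limma adjusted p = 0.0664), ILCp 1 (8.32, adjusted p = 0.0503) or ILCp 2 (8.35, adjusted p = 0.0533). Against ALP the log2 fold change was 10.67 ± 1.65 (limma adjusted p = 0.000659). Of 8 ILC2 genes, Gata3, Icos and Areg rose from EILP to ILCp and none fell, with sums of 6.26 to 27.8 CPM in ALP, 183 to 296 CPM in EILP and 1087 to 3208 CPM in ILCp, and Klrg1, Il5 and Areg at the zero level in all ALP and EILP libraries. Their part in the Ccr8 difference was not tested.

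Xcr1 encodes the receptor of XCL1 and is best known from cross-presenting dendritic cells (chromosome 9, 123852315 to 123862029, minus strand). In ALP 6 of 7 libraries were at the zero level, with ALP 5 at −0.63 log2 CPM. In EILP 3 of 7 were at the zero level and the other 4 lay between −3.14 and −1.05. ILCp libraries 1 to 5 were at 6.01, 5.49, 3.78, 4.76 and 6.24, so all 5 exceeded every ALP and EILP library. The log2 fold change from EILP was 8.09 ± 1.57 (limma adjusted p = 0.0114), with 10.19, 9.68 and 8.06 in batches 1, 2 and 4. It was lost without EILP 5 (7.91, limma adjusted p = 0.0652). Against ALP it was 10.02 ± 1.52 (limma adjusted p = 0.000548). Of 9 other genes of conventional dendritic cells, none was called from EILP to ILCp in limma (1 at an unadjusted p below 0.05), and their summed level was 361 to 1037 CPM in EILP and 378 to 1566 CPM in ILCp, after 894 to 2896 CPM in ALP. Of genes of the same Xcr1-bearing dendritic cells, the lectin gene Clec9a was at the zero level in 4 of 5 ILCp libraries, whereas Batf3, the gene of a transcription factor, was above it in all 5 and had risen from ALP to EILP by 5.26 ± 1.21 (limma adjusted p = 0.0168). The antigen presentation genes H2-Aa and Cd74 had their highest mean levels in ILCp, at 6.74 ± 1.25 and 8.15 ± 0.91 log2 CPM (SD, n = 5), without a call in the 3 comparisons. Compared with ALP, Batf3 was called higher in ILCp, whereas Flt3 and Itgax were called lower. Itgax was above the zero level in all 7 ALP libraries and at it in 4 of 5 ILCp libraries. The part of dendritic cell transcripts in the Xcr1 difference was not tested.

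Ccr7 in ILCp was at 6.31, 5.52, 5.83, 6.34 and 5.71 log2 CPM in libraries 1 to 5, all above the EILP libraries and overlapping ALP. It rose by 2.40 ± 0.58 from EILP (limma adjusted p = 0.0344), with 3.11, 0.77 and 3.82 in batches 1, 2 and 4. This call was lost without EILP 1, 5 or 7 or any single ILCp library, more than for the other 4 called at this step, with log2 fold changes of 1.58 to 2.61 and limma adjusted p of 0.0542 to 0.208. Against ALP the difference was 0.91 with a 95% confidence interval of −0.28 to 2.09 (limma adjusted p = 0.390).

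Cxcr3, Cxcr5, Cxcr4 and Ccr9 did not pass at the second step. Cxcr3 encodes the receptor of CXCL9, CXCL10 and CXCL11 on NK cells, ILC1 and TH1 cells (X chromosome, 101731535 to 101734269, minus strand). It ranged from −6.42 to 4.17 log2 CPM in ALP (median 0.87) and from −3.54 to 1.81 in EILP (median −2.90). In ILCp it was at 4.02, 6.24, 4.85, 3.83 and 5.61 in libraries 1 to 5, and no EILP library reached the lowest of these. The log2 fold change from EILP was 6.52 ± 2.01 (limma adjusted p = 0.0957), with 7.47, 9.78 and 8.08 in batches 1, 2 and 4, and it passed without ALP 7 (7.18, limma adjusted p = 0.0255). Cxcr3 in ILCp overlapped ALP, where the scatter was wide (SD 3.74, n = 7). Of 9 NK cell genes, 3 rose from ALP to EILP, and none was called from EILP to ILCp in limma (2 at an unadjusted p below 0.05), with summed levels of 115 to 313 CPM in ALP, 407 to 705 CPM in EILP and 485 to 704 CPM in ILCp, and their part was not tested.

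Cxcr4 in ILCp was at 4.42, 5.27, 5.55, 5.42 and 4.16 log2 CPM in libraries 1 to 5, all below every ALP library and overlapping EILP. Against ALP it stood at a log2 fold change of −1.68 ± 0.31 (limma adjusted p = 0.00293), and Cxcr4 was the only receptor of the set that was called lower in ILCp than in ALP. Within batches 1, 2 and 4 the difference was −2.39, −1.34 and −1.49. The second step alone gave −0.79 ± 0.33 (limma adjusted p = 0.225). The mean levels thus ran from 6.64 ± 0.18 (SD, n = 7) in ALP through 5.76 ± 0.38 (n = 7) in EILP to 4.96 ± 0.63 (n = 5) in ILCp, but neither single step passed.

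Ccr6 encodes the receptor of CCL20, found on lymphoid tissue inducer cells and other ILC3 (chromosome 17, 8236043 to 8257141, plus strand). It was at the zero level in all 7 ALP libraries. It was above it in 4 of 7 EILP libraries, at −0.27, 2.19, −0.53 and 3.57 log2 CPM in EILP 1, 4, 5 and 6, and in 3 of 5 ILCp libraries, at 0.39, 1.73 and 0.63 in ILCp 1, 3 and 5. EILP and ILCp overlapped throughout, with a difference of −0.11 and a 95% confidence interval of −4.29 to 4.06 (limma adjusted p = 0.994). No fold against ALP is given because all its libraries were at the zero level. The other 5 ILC3 genes summed to 15.1 to 155 CPM in ALP, 26.8 to 129 CPM in EILP and 463 to 2556 CPM in ILCp, of which 1, Ltb, rose from EILP to ILCp, and their part was not tested.

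Over both steps together, 5 of the 10 receptors were higher in ILCp than in ALP (Cxcr5, Cxcr6, Ccr2, Ccr8 and Xcr1) and Cxcr4 was lower, where 8.24% of all genes were called, 3.86% higher and 4.39% lower. The 718 higher and 816 lower genes turned to 813 higher and 584 lower with each library centred on its median, and the receptor calls stayed. The median log2 fold change of the 9 receptors other than Ccr6 was 4.89, against −0.03 over all genes. These 6 calls held without each library in turn, though over all genes 920 passed in place of 1534 without ILCp 2. This comparison shares its libraries with the other 2, so it is not a separate line of evidence.

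**Figure D2:**
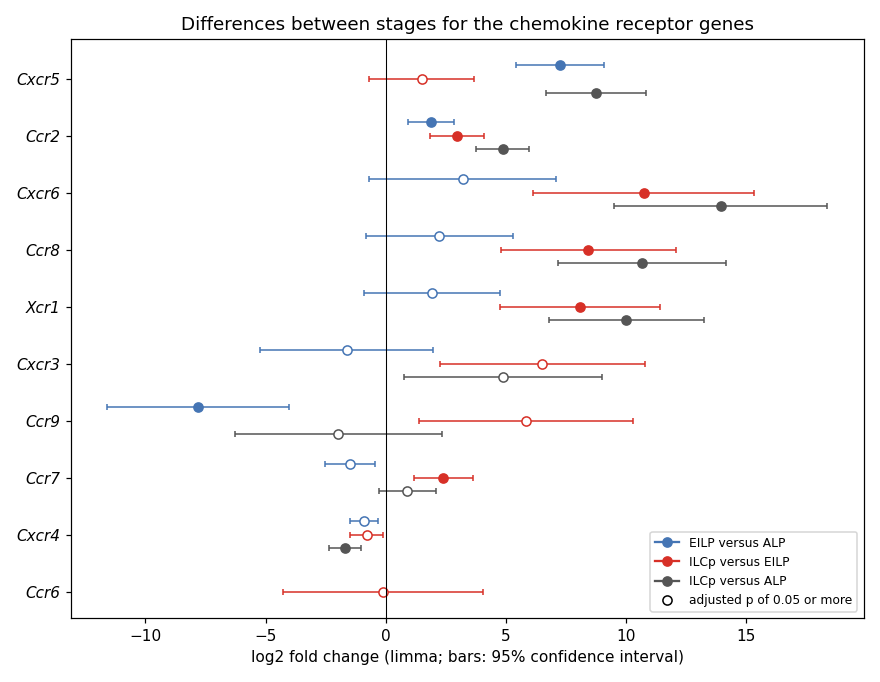
Log2 fold changes (x axis) with 95% confidence intervals for the 10 receptors in the 3 comparisons, filled where the limma adjusted p was below 0.05; Ccr6 against ALP is left out because ALP was at the zero level. Cxcr5 and Ccr9 lie farthest from 0 at the first step, in opposite directions (7.26 and −7.81), and Cxcr6, Ccr8 and Xcr1 at the second (10.74, 8.44 and 8.09), where libraries at the zero level leave the sizes uncertain.

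Levels of different genes can be set side by side only per length, taken here over all annotated exons of a gene. Per kilobase of annotated exon, on the log2 CPM per kilobase scale, the mean levels in ILCp were 8.56 for Cxcr6 and 7.23 for Ccr2, followed by 5.49 for Ccr8, 5.45 for Cxcr5, 4.96 for Ccr7, 4.12 for Cxcr3, 4.11 for Cxcr4 and 3.10 for Xcr1. In ALP the leading receptors on this scale were Cxcr4 at 5.79 and Ccr7 at 4.05, and in EILP Cxcr4 at 4.90, Ccr2 at 4.24 and Cxcr5 at 3.95. Thus Cxcr4 had the highest mean per length in ALP and EILP and ranked seventh in ILCp, nearly level with Cxcr3. The lengths are those of GENCODE M21, since no source used here names the authors' annotation. They join the exons of all transcripts, from 1175 bases for Ccr8 to 10260 for Ccr9, and the order depends on this choice. Ccr9, with a mean of 5.22 log2 CPM in ALP, stood at 1.86 on this scale.

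The 2 Plzf-cre-GFP libraries of ILCp were set against the 3 Tcf7EGFP libraries in the same model. Both Plzf-cre-GFP libraries are in batch 4, where ILCp 3 is the only Tcf7EGFP library of ILCp. ILCp 1 and 2 are in batches 1 and 2, so genotype and batch are only partly separated. None of the 10 receptors passed in limma (adjusted p = 1 for each, and none below an unadjusted p of 0.05), where 0.0752% of all genes did, 0.0645% higher and 0.0107% lower. The 95% confidence intervals were wide, from −1.40 to 0.67 for Cxcr4 and from −5.54 to 8.48 for Cxcr6, and so leave large differences possible.

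The 10 genes were chosen as members of a receptor family, and genes of a family can lie side by side. Their positions are therefore not independent of the choice, and the share of all genes on chromosome 9 was not determined. Of the 10, 6 lie on chromosome 9, and 4 of these, Ccr9, Cxcr6, Xcr1 and Ccr2, lie within 435.1 kb (chromosome 9, 123678439 to 124113557), together with Ccr1 and Ccr3. The stretch begins at the GENCODE M21 start of Ccr9, which lies before its RefSeq start. The table holds 11 genes that overlap this stretch, a set put together after the values were seen. From EILP to ILCp 3 of the 11 rose, which are the Cxcr6, Xcr1 and Ccr2 calls given above, and none fell, where 1.76% of all genes were called higher and 1.46% lower. Nothing about the stretch is read from this count. Among the neighbours that did not pass, Ccr1, which binds CCL3 and CCL5 and lies between Xcr1 and Ccr2, had a log2 fold change of −3.00 ± 2.07 (limma adjusted p = 0.506). At the first step Ccr2 rose and Ccr9 fell, while Ccr1 did not pass (4.08 ± 1.75, limma adjusted p = 0.237).

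**Figure D3:**
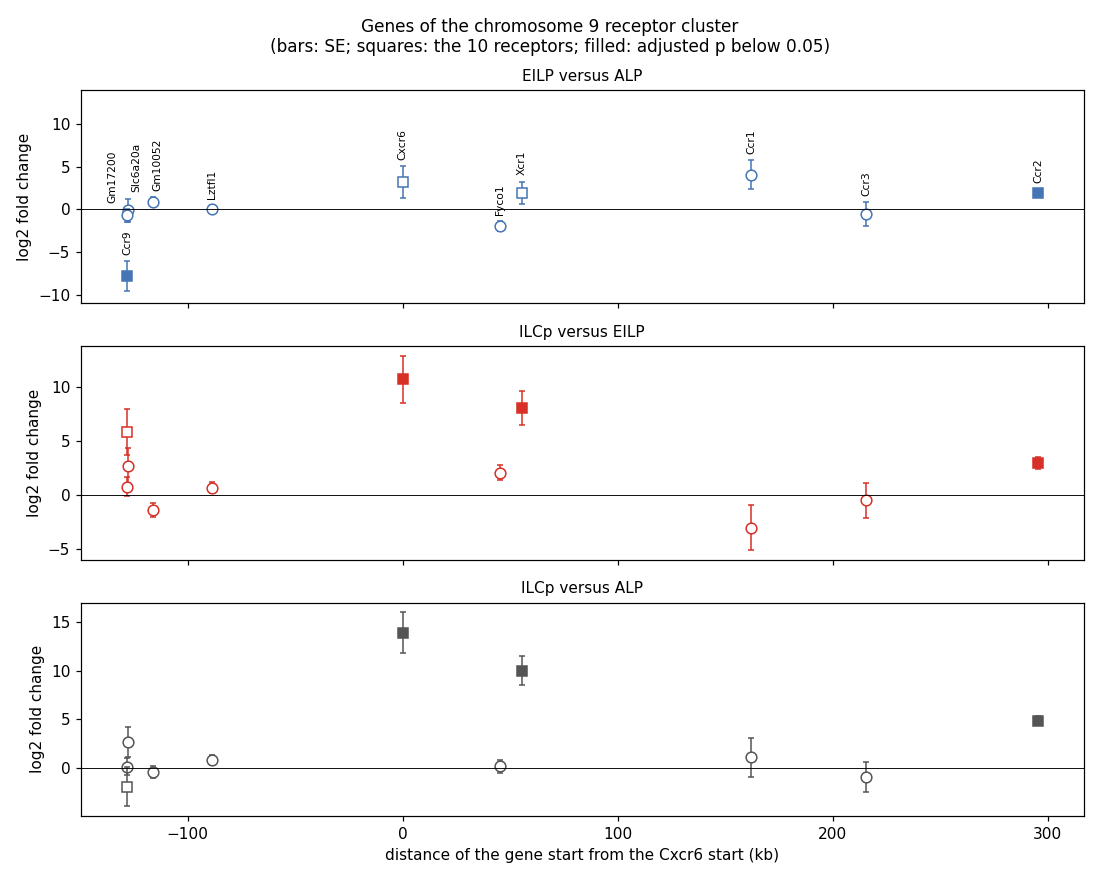
Log2 fold changes with SE (y axis) of the 11 genes of the chromosome 9 stretch in the 3 comparisons. The x axis gives the distance of their GENCODE M21 start from that of Cxcr6 in kb. Squares mark receptors of the set and filled symbols a limma adjusted p below 0.05. In ILCp versus EILP, Cxcr6, Xcr1 and Ccr2 are filled at 10.74, 8.09 and 2.99, with open symbols for the genes between them.

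Of 7 other signalling chemokine receptors examined, none passed from ALP to EILP in limma (2 at an unadjusted p below 0.05), and Ccr4 alone passed from EILP to ILCp and from ALP to ILCp. Ccr4 encodes the receptor of CCL17 and CCL22 of TH2 cells and ILC2. It was at the zero level in 6 of 7 ALP and 4 of 7 EILP libraries and between 2.81 and 3.71 log2 CPM in ILCp, a rise of 6.97 ± 0.93 from EILP (limma adjusted p = 0.000992). Ccr10, a receptor of skin-homing lymphocytes, was at the zero level in all ALP and 6 of 7 EILP libraries but above it in 4 of 5 ILCp libraries, with a difference of 3.11 ± 1.45 from EILP (limma adjusted p = 0.295). Cx3cr1, the fractalkine receptor, was at 4.98 ± 0.25 in ALP, 3.17 ± 1.52 in EILP and 4.42 ± 1.08 in ILCp without a call. The neutrophil receptor gene Cxcr2 and the eosinophil receptor gene Ccr3 had means below 0 in all 3 stages, and Cxcr1 was at the zero level in all but 1 of the 19 libraries. Of 5 atypical receptors (Ackr1, Ackr2, Ackr3, Ackr4 and Ccrl2), which bind chemokines without G protein signalling, none passed in any of the 3 comparisons in limma, and 1 had an unadjusted p below 0.05. This was Ccrl2, with −5.20 ± 1.76 for ILCp against ALP (limma adjusted p = 0.0869).

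Of 17 ligands of the 10 receptors, 7 are in the table. Mif, a cytokine that also binds CXCR4, rose by 0.56 ± 0.12 from ALP to EILP (limma adjusted p = 0.0110) and fell by 1.14 from EILP to ILCp (SE 0.14, limma adjusted p = 0.000488). Its levels lay within 8.22 to 8.86 log2 CPM in ALP, 8.81 to 9.19 in EILP and 7.72 to 8.13 in ILCp, so ILCp lay below both other stages. Xcl1, the ligand of XCR1, was at the zero level in 6 of 7 ALP libraries, with the other unresolved, and above it in 5 of 7 EILP and 3 of 5 ILCp libraries. It was higher in ILCp than in ALP by 5.00 ± 1.36 (limma adjusted p = 0.0315), with a highest level of 1.57 log2 CPM in ILCp. Of 13 other chemokines in the table, Ccl5 alone passed from ALP to EILP and from ALP to ILCp, and none passed from EILP to ILCp in limma (2 at an unadjusted p below 0.05).

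Signalling genes downstream of chemokine receptors changed in part. Of 35 such genes examined, 3 rose and 2 fell from ALP to EILP, 5 rose and none fell from EILP to ILCp, and 7 rose and 1 fell from ALP to ILCp. Over all genes, 5.05%, 3.21% and 8.24% were called in these comparisons. Over the 35 the median log2 fold change was 0.01, 0.25 and 0.39 in the same order, against 0, −0.08 and −0.03 over all genes. Gnai3, which encodes an inhibitory G protein subunit that these receptors couple to, rose at both steps. It lay within 8.13 to 8.68 log2 CPM in ALP, 8.58 to 8.99 in EILP and 9.88 to 10.22 in ILCp, and the second step was 1.28 ± 0.13 (limma adjusted p = 6.15e-05). Prex1, an exchange factor that activates Rac, rose by 1.29 ± 0.24 from EILP to ILCp (limma adjusted p = 0.00850). Rassf5, which links Rap1 to integrin activation, rose by 0.70 ± 0.13 at the same step (limma adjusted p = 0.00690).

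Of 5 arrestin and receptor kinase genes, whose products end receptor signalling, Arrb1 and Grk5 rose from EILP to ILCp and the other 3 did not pass, with 0.0033 for Arrb2, −0.11 for Adrbk1 and 0.42 for Grk6 (limma adjusted p = 1, 0.845 and 0.158). Arrb1, a β-arrestin that uncouples and internalises receptors, averaged 1.89 ± 1.56 log2 CPM (SD, n = 7) in EILP and 6.31 ± 0.40 (n = 5) in ILCp without overlap, a rise of 4.42 ± 1.01 (limma adjusted p = 0.0269). Grk5, a kinase that phosphorylates activated receptors, rose by 5.16 ± 1.12 (limma adjusted p = 0.0207), from at least 4 of 7 EILP libraries at the zero level to 4 of 5 ILCp libraries above it. These 2 genes were singled out after their values were seen. At the first step Gnb1, a G protein β subunit, rose by 0.46 ± 0.09 (limma adjusted p = 0.00396). Tln1, the gene of the integrin activator talin, rose by 0.66 ± 0.16 (limma adjusted p = 0.0230). Arhgef6 and Pik3cg, an exchange factor for Rac and Cdc42 and the PI3-kinase subunit activated by Gβγ, fell by 1.05 and 1.06 (limma adjusted p = 0.00527 and 0.0353). Rasgrp2, an activator of Rap1, was the 1 gene of the list that was lower in ILCp than in ALP, at −2.17 ± 0.44 (limma adjusted p = 0.00536). Of 8 RGS genes, whose products speed the inactivation of Gα subunits, Rgs3 alone was called, and none passed from EILP to ILCp in limma (2 at an unadjusted p below 0.05). Rgs3 rose by 2.35 ± 0.39 from ALP to EILP (limma adjusted p = 0.00157).

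**Figure D4:**
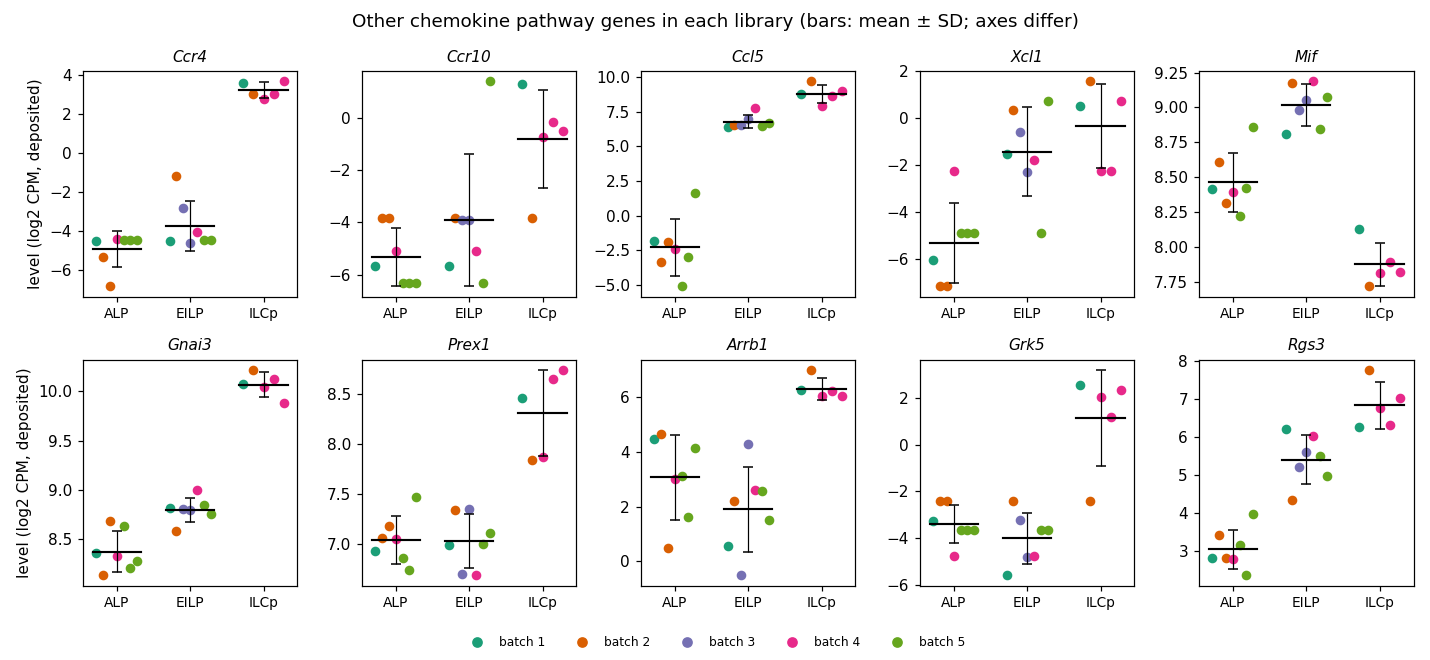
Deposited log2 CPM (y axis) of 10 further genes of the chemokine pathway in each of the 19 libraries by stage (x axis), coloured by batch, with bars for the mean ± SD; the genes were chosen after their values were seen. Gnai3 climbs from 8.13 to 8.68 in ALP to 9.88 to 10.22 in ILCp, and Mif is lowest in ILCp, at 7.72 to 8.13.

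For each receptor called in at least 1 comparison of stages, the genes with the most similar levels were sought among 10674 or 10675 genes with a mean above 0 log2 CPM, by the root mean square difference of levels centred on their own mean over the 19 libraries. Pkig came nearest to Cxcr4, with a difference of 0.23 on the log2 scale, where Cxcr4 itself has an SD of 0.78. Lmo4 came nearest to Ccr2 (0.82, against an SD of 2.08) and Stk17b nearest to Ccr7 (0.69, against 1.22). The T cell receptor joining segment Trbj1-2 came nearest to Cxcr5 (1.22, against 4.16) and the interferon-induced gene Ifit1 nearest to Ccr9 (1.33, against 4.48). Among the receptors that rose at the second step, the T cell kinase gene Txk came nearest to Cxcr6 (2.60, against 6.39), Cxcr6 itself nearest to Ccr8 (2.42, against 4.90) and Camk4 nearest to Xcr1 (1.69, against 4.59). Camk4 was also second nearest to Cxcr6 and, behind Txk, stood next for Ccr8. The other genes named by this rule were H2-DMa and Pnp for Cxcr4, Lphn2 and Trbj1-5 for Cxcr5, Nebl for Cxcr6, Socs1 and S100a4 for Ccr2, Cep95 and Slc23a2 for Ccr7, Parp12 and Kbtbd11 for Ccr9, and Igfbp7 and Thy1, the latter part of the sorting gate, for Xcr1. The points share their libraries and the batch removal, and levels at the zero level enter these differences.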

How the data were processed

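RNA-seq was analysed in 19 libraries of sorted mouse progenitors (7 ALP, 7 EILP, 5 ILCp), grouped by the labels. The deposited table gives log2 CPM for 18607 genes. The labels' protocols give SMARTer Ultra Low and Nextera XT library kits, and per the submitters' processing notes the tools were limma, edgeR, STAR 2.4.0h and bcl2fastq 1.8.4 and the build mm10, with no roles stated. Batch had been removed before deposit, as read from the values: beside the stages, the largest batch coefficient of any gene is 1.84e-08. Depth is unknown, so no counting interval is given; summed CPM was 908573 to 1035204.

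Stages were compared in R 4.3.3 with limma 3.58.1 (mean-variance trend, stage and the 5 batches as fixed terms, 12 residual degrees of freedom, no filter on low values), with Benjamini-Hochberg adjustment over all genes and a threshold of 0.05. The batch term stays in the model so that the degrees of freedom that its removal used are counted. Libraries at the zero level were found as those sharing the minimum of their batch to within 0.0001. The batch minima were also taken as the zero level where they averaged to the common −4.96 log2 CPM. Where a single batch lacked a shared minimum, its zero level was inferred from that average and the other batches. Some libraries counted at the zero level, such as ALP 4 for Ccr8 and Xcr1, thus share their value with no other library. The fit was tested on simulated data with normally distributed scatter and no zero level, so that test does not speak for genes near that level. Positions are from GENCODE M21 (GRCm38) and promoters from RefSeq (8 of the 10 receptors matched; Cxcr5 and Ccr7 did not). The receptors and gene lists were chosen with earlier results of these data known. All 10 receptors are named. The other and atypical receptors examined are named too, and of the remaining lists up to 3 rising and 3 falling genes per comparison with the smallest p, beside the 3 genes most like each called receptor. Some genes are not reported here and were left out of the lists. Alternatives changed the handling of batch (including a replicate block), the samples in the model, each library left out, scaling, a filter on low levels, the variance model and a fold threshold.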

Additional observations from a re-analysis of the deposited data

How the results depend on the processing

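Of 972 alternative values for the 10 receptors in the 3 stage comparisons, 896 kept their direction and side of the threshold, 41 no longer passed, 27 newly passed and 8 changed sign. Most of the 27 came from fits without batch as a fixed term. Scaling changed no receptor call. Depth is unknown, and levels near the zero level limit what can be said of Cxcr3, Ccr6 and Ccr9 and leave the sizes of the Cxcr5, Cxcr6, Ccr8 and Xcr1 changes uncertain. Where a call changed, the cause was not tested. With no batch term, the EILP versus ALP comparison called 5 receptors and 2551 genes, that of ILCp versus EILP 8 and 3047, and that of ILCp versus ALP 3856 genes. Batch as a random effect gave 6 and 3391, 9 and 8201, and 10 and 11612. Neither of these fits counts the degrees of freedom that batch removal used, so their larger counts are not read as more differences. The random effect is also estimated from values in which removal made deviations within a batch sum to 0. With the replicate number as a block in place of batch, 5 receptors and 1613 genes passed at the first step, 1484 genes at the second and 2362 for ILCp versus ALP. No label ties the numbers to shared animals. Over 7 same-numbered pairs from different batches deviations correlated at −0.025 to 0.049, which speaks for these pairs only. The 10 pairs within a batch (−0.57 to −0.15) say nothing on pairing, since batch removal makes deviations within a batch sum to 0. Whether same-numbered libraries share animals was thus not decided.

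With only the stages compared in the model, 183 genes passed for ILCp versus EILP and 772 for ILCp versus ALP, and with only batches that hold both stages 233 and 855. Without the Plzf-cre-GFP libraries, 1 receptor and 254 genes passed for ILCp versus EILP and 1012 genes for ILCp versus ALP. Leaving out batch 4, an alternative chosen after seeing the data, gave 1 receptor and 583 genes at the first step, 0 receptors (6 at an unadjusted p below 0.05 in limma) and 258 genes for ILCp versus EILP, and 855 genes for ILCp versus ALP, where Cxcr6 no longer passed. Without ALP 7 and EILP 2 together, 1 receptor passed at the first step, and 3 with 309 genes at the second. Among genes above the median mean level, which leaves out several receptors by construction, 2 and 3 receptors passed for ILCp versus EILP and ILCp versus ALP. Without the mean-variance trend 280 genes passed for ILCp versus EILP. With each library left out in turn, 1 to 4 receptors passed at the first step, 0 to 6 receptors and 224 to 624 genes for ILCp versus EILP, and 920 to 1584 genes for ILCp versus ALP.

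Signs turned where no call was made. The Ccr6 difference between ILCp and EILP was 0.095 with only batches that hold both stages, 0.74 without the Plzf-cre-GFP libraries, and −0.92 to 0.82 with each library left out. The Ccr9 difference between ILCp and ALP was −4.04 to 1.32 with each library left out. Between Plzf-cre-GFP and Tcf7EGFP ILCp, leaving out each library gave −1.28 to 0.50 for Cxcr3, −0.99 to 0.27 for Cxcr4, −0.62 to 0.39 for Ccr2, −5.83 to 0.35 for Ccr6, −0.40 to 0.78 for Ccr7, −0.42 to 1.39 for Ccr8, −0.94 to 3.99 for Ccr9 and −0.96 to 1.25 for Xcr1, and Ccr7 was at −0.015 without ALP 7 and EILP 2 together.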
